A study of Mus musculus with 26 samples.

Results

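The question here is whether going from the low to the high dose changed lung gene expression alike for NM 401 and for Mitsui XNRi-7, which are both multiwalled carbon nanotubes. For each nanotube the dose step is the high-dose group minus the low-dose group, on log2 values, and the interaction is the NM 401 step minus the Mitsui step. A positive interaction means that expression moved upwards with dose by more for NM 401 than for Mitsui. The contrast uses 20 of the 25 animals of the series, read on 21 of its 26 arrays, and was fixed by the design and not by measured values.

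All animals were MutaTMMouse, a transgenic mouse line used to count mutations in tissue DNA, labelled as females of about 12 weeks. The groups were NM 401 high (128 µg per mouse), NM 401 low (42.7 µg per mouse), Mitsui high (128 µg per mouse), Mitsui low (42.7 µg per mouse) and control, with 5 animals each. The nanotubes were given in mouse serum through the trachea in 4 weekly instillations, and lungs were taken 56 days after the last of these. Whether the stated amount is for 1 instillation or for all is not settled by the labels, which describe the controls both as vehicle controls and as mice given olive oil by gavage. Controls carry no weight in the interaction itself, but they enter the estimate of the spread and the filter of probes. With the 20 exposed animals only, 2 of the 7 features called below were still called. Control values are given only for orientation. RNA came from random sections of lung, so fewer cells of a type and less RNA per cell cannot be told apart.

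Values are log2 of Cy5 over Cy3 on 2-colour Agilent arrays, with lung RNA in Cy5 and universal mouse reference RNA in Cy3. In the exposed groups, 47.2% to 63.2% of probes per array were well above background in Cy5, and all 16 markers of alveolar type 2 cells and 15 of 16 markers of alveolar type 1 cells were among the genes tested. Arrays lay on 4 slides, and NM 401 high had none on slide 2 and lay only in array columns 1 and 2. Slide differed in 6391 features and array column in 0, at an adjusted p under 0.05 by limma. One NM 401 high animal, replicate 2, goes against its label of female: both Xist probes were not well above background there, at -1.41 and -3.04, against at least 0.21 in every other exposed animal. The Y-linked genes Ddx3y and Kdm5d were well above background in 0 animals and each Uty probe in 1, but the probe of Eif2s3y, also Y-linked, was so in 22 of 25 animals, at -1.96 in this animal and between -2.41 and -1.50 in the other exposed animals. The study design calls the mice male. Mitsui low animal 5 was measured on 2 arrays, which were averaged and count as 1 animal.

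Of the 7 features called below, 3 are genes of the protein-folding machinery of the endoplasmic reticulum (ER). Chaperones such as Hspa5 fold newly made secreted and membrane proteins there, and when unfolded proteins build up, sensors in the ER membrane start the unfolded protein response, which raises transcription of these chaperones through factors that include Xbp1 and Atf6. In the lung this machinery is known for its work in secretory cells such as alveolar type 2 cells and plasma cells, and in activated macrophages.

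The promoters of 3 genes of this group are shown as examples because the ER stress element, a known binding site of the unfolded protein response, lies in some of them. Creld2 was not called below, unlike Hspa5 and Dnajb9. The windows are from RefSeq on GRCm38.p6 and run 5′ to 3′ across the annotated start. Capitals mark the ER stress element (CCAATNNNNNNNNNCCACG, on either strand) in Hspa5 and Creld2, and its CCACG core in Dnajb9, where the whole element was not found. The positions are chr2:34771840-34772139, plus strand for Hspa5, chr15:88819396-88819695, plus strand for Creld2, and chr12:44210019-44210318, minus strand for Dnajb9.
Hspa5: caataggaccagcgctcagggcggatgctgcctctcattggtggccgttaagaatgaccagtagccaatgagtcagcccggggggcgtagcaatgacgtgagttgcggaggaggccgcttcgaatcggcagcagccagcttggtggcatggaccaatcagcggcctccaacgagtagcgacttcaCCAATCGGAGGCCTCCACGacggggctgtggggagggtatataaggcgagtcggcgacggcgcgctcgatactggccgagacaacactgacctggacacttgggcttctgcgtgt
Creld2: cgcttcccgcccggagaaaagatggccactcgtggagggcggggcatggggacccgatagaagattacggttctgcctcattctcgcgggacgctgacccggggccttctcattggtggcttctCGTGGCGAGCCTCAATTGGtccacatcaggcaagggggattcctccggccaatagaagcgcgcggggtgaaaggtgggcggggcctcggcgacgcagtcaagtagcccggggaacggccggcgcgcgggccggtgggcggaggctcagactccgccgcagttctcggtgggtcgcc
Dnajb9: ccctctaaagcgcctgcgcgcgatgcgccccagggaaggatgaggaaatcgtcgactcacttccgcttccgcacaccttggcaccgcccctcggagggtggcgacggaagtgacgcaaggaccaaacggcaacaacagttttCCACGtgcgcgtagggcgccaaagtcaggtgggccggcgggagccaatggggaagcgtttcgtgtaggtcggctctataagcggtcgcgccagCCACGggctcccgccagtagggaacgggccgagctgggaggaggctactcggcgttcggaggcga

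The whole element was found in 0.119% of 32851 RefSeq promoter windows, and the CCACG core, which lies within it, in 32.8%. Of 35 ER chaperone and unfolded protein response genes described below, 30 had a window, and 9 of these held the whole element (Calr, Canx, Creld2, Derl3, Dnajc3, Hsp90b1, Hspa5, Pdia6 and Syvn1). Other elements were searched as well. ER stress element II was in 2 of the 30 (Dnajb11 and Herpud1), against 0.0365% of all windows. The unfolded protein response element, searched only as TGACGTGG on either strand, was in 0 of the 30, against 0.676% of all windows. The Hspa5 window above holds TGACGTGA, which differs in the last base and was not searched for. The windows of Xbp1 and Anxa4 held none of these elements and no core, and that of Dock6 held only the core. Manf had no window. A match describes the letters searched for only, and no match says only that they are not in this window.

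Across 22950 features tested with limma, 7 had an interaction called at a Benjamini-Hochberg adjusted p under 0.05, which is 0.0305% of those tested. Of these 5 were higher for NM 401, namely Anxa4, Manf, Hspa5, Dnajb9 and the unnamed probe A_30_P01026830, and 2 were lower (0.00871%), Dock6 and Gm15772. At an unadjusted p under 0.05 there were 2926 features, or 12.7%. With slide as a block, 145 were called (0.632%), 50 higher (0.218%) and 95 lower (0.414%), including all 7. The count was not stable in other ways: it was 1 without NM 401 high animal 2, and between 1 and 197 when each of the 20 exposed animals was left out in turn. The split was 8 higher and 6 lower in the authors' matrix and 6 higher and 5 lower with no background subtraction.

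**Figure D1:**
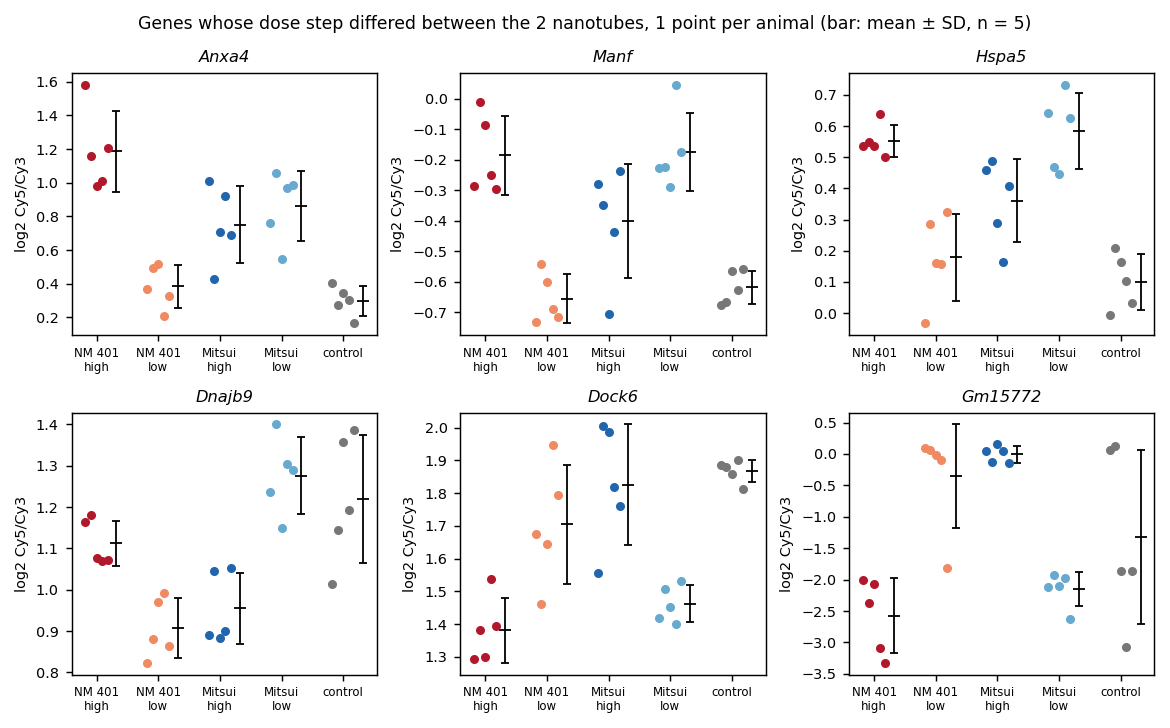
Log2 ratio of lung over reference RNA (vertical axes) in each animal of the 5 groups for the 6 named genes with a called interaction, with the mean ± SD of 5 animals beside the points. For Manf the NM 401 high animals lie between -0.30 and -0.01, all above the NM 401 low animals, and the Mitsui low animals all lie above the median of the Mitsui high animals.

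Manf, a secreted protein of the ER that is induced by ER stress, measured -0.29, -0.01, -0.09, -0.25 and -0.30 in NM 401 high lungs, against -0.73, -0.54, -0.60, -0.69 and -0.71 in NM 401 low lungs. It measured -0.28, -0.35, -0.71, -0.44 and -0.24 in Mitsui high lungs, against -0.23, -0.22, -0.29, 0.04 and -0.18 in Mitsui low lungs. The 2 NM 401 groups did not overlap, and the Mitsui high group reached lower than any Mitsui low animal. The NM 401 step was 0.47 ± 0.08 (standard error, n = 5 per group; adjusted p = 0.00471 by limma) and the Mitsui step -0.23 ± 0.08 (adjusted p = 0.673). The interaction was 0.70 ± 0.11 (adjusted p = 0.0332 by limma). In controls Manf measured -0.68, -0.67, -0.57, -0.63 and -0.56, close to the NM 401 low animals.

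Hspa5, the main ER chaperone of the Hsp70 family and a regulator of the stress sensors, measured 0.54, 0.55, 0.54, 0.64 and 0.50 in NM 401 high lungs, against -0.03, 0.29, 0.16, 0.16 and 0.32 in NM 401 low lungs. In Mitsui high lungs it measured 0.46, 0.49, 0.29, 0.17 and 0.41, against 0.64, 0.47, 0.45, 0.73 and 0.63 in Mitsui low lungs. All NM 401 high animals lay above all NM 401 low animals, while the 2 Mitsui groups overlapped with the high dose toward the lower end. The steps were 0.37 ± 0.07 for NM 401 (adjusted p = 0.00944 by limma) and -0.22 ± 0.07 for Mitsui (adjusted p = 0.6). Their difference, the interaction, was 0.60 ± 0.11 (adjusted p = 0.0381 by limma).

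Dnajb9, a co-chaperone that works with Hspa5, measured 1.16, 1.18, 1.08, 1.07 and 1.07 in NM 401 high lungs, against 0.82, 0.88, 0.97, 0.99 and 0.86 in NM 401 low lungs. In Mitsui high lungs it measured 0.89, 1.05, 0.88, 0.90 and 1.05, against 1.24, 1.40, 1.15, 1.30 and 1.29 in Mitsui low lungs. Neither pair of groups overlapped, and the 2 pairs ran in opposite directions. Neither step was called on its own: 0.21 ± 0.07 for NM 401 (adjusted p = 0.0887 by limma) and -0.32 ± 0.07 for Mitsui (adjusted p = 0.136). The interaction was 0.53 ± 0.10 (adjusted p = 0.0381 by limma), and a second probe of Dnajb9 gave 0.37. Unlike Manf and Hspa5, whose controls lay with NM 401 low, the Dnajb9 controls measured 1.01, 1.15, 1.36, 1.19 and 1.39, across the range of NM 401 high and Mitsui low.

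Anxa4, a calcium-dependent protein that binds membrane phospholipids, had the largest interaction among the features called higher. It measured 1.58, 1.16, 0.98, 1.01 and 1.21 in NM 401 high lungs, against 0.37, 0.50, 0.52, 0.20 and 0.33 in NM 401 low lungs, with no overlap. It measured 1.01, 0.43, 0.71, 0.92 and 0.69 in Mitsui high lungs, against 0.76, 1.05, 0.54, 0.97 and 0.99 in Mitsui low lungs, which overlapped. The NM 401 step was 0.80 ± 0.12, a 1.75-fold higher ratio (adjusted p = 0.00305 by limma), and the Mitsui step was -0.11 ± 0.12 (adjusted p = 0.999). The interaction was 0.91 ± 0.16 (adjusted p = 0.0381 by limma). Here most of the difference lay on the NM 401 side, while for Manf and Hspa5 a lower value at the Mitsui high dose added to it. For Dnajb9 the Mitsui step was the larger of the 2. None of these Mitsui steps was called.

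Dock6, which activates the small GTPases that organise the actin cytoskeleton, ran the other way. It measured 1.29, 1.38, 1.30, 1.54 and 1.39 in NM 401 high lungs, against 1.68, 1.46, 1.65, 1.95 and 1.80 in NM 401 low lungs. It measured 1.56, 2.01, 1.99, 1.82 and 1.76 in Mitsui high lungs, against 1.42, 1.51, 1.45, 1.40 and 1.53 in Mitsui low lungs. The Mitsui groups did not overlap, and the NM 401 groups overlapped in 1 pair of animals. The steps were -0.32 ± 0.08 for NM 401 (adjusted p = 0.0277 by limma) and 0.36 ± 0.08 for Mitsui (adjusted p = 0.177), and the interaction was -0.69 ± 0.12 (adjusted p = 0.0335 by limma). Controls measured 1.89, 1.88, 1.86, 1.90 and 1.81, in the range of the upper NM 401 low and Mitsui high animals.

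The unnamed probe A_30_P01026830, which reads bases 36112429 to 36112792 of chromosome 2 on mm9 per the file headers, measured 0.54, 0.52, 0.61, 0.59 and 0.59 in NM 401 high lungs, against 0.22, 0.36, 0.29, 0.40 and 0.31 in NM 401 low lungs. It measured 0.38, 0.22, 0.08, 0.09 and 0.33 in Mitsui high lungs, against 0.49, 0.37, 0.57, 0.38 and 0.55 in Mitsui low lungs. The NM 401 groups did not overlap and the Mitsui groups overlapped by a narrow margin. The interaction was 0.50 ± 0.09 (adjusted p = 0.0381 by limma).

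Gm15772 had the largest interaction of all 7 and needs separate treatment. It is annotated as a transcribed pseudogene that shares the name Rpl26, a ribosomal protein gene, so its probe may read both and the value is uncertain. It measured -2.01, -2.37, -2.08, -3.09 and -3.32 in NM 401 high lungs, against 0.10, 0.07, -0.02, -0.09 and -1.82 in NM 401 low lungs. It measured 0.06, -0.13, 0.16, 0.04 and -0.14 in Mitsui high lungs, against -2.12, -1.93, -2.10, -1.97 and -2.62 in Mitsui low lungs. The animals fell at 2 levels, near 0 or near -2 and below, and controls held both (0.07, 0.13, -1.86, -3.07 and -1.87). The interaction was -4.36 ± 0.64 (adjusted p = 0.0124 by limma). What separates the 2 levels was not tested.

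All 7 features had dose steps of opposite sign for the 2 nanotubes, against 51.2% of all features. The NM 401 step was also called for 6 of them (3.85% of all features), and for Dnajb9 it was not. The 7 were chosen by the difference of these same steps, which favours both counts, so no support is drawn from them. Within each of the 3 slides that held all 4 exposed groups, with 1 or 2 arrays per group, all 21 values kept the sign of the interaction. The 7 features were chosen on these same arrays, which favours the same sign, so no support is drawn from it. Mitsui low animal 5 also lay on both slides 3 and 4. For Manf the within-slide values were 0.62, 0.91 and 0.55 on slides 1, 3 and 4, and for Hspa5 0.52, 0.46 and 0.57. For Anxa4 they were 0.83, 1.58 and 1.11 and for Dock6 -0.93, -1.04 and -0.52. Leaving out NM 401 high animal 2 kept Manf at 0.65, Hspa5 at 0.60, Dnajb9 at 0.51, Anxa4 at 0.92 and Dock6 at -0.69, each with an adjusted p of 0.0609 by limma, and only Gm15772 was still called. With the array column as a block, only Gm15772 was called.

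The next genes in order of p were not called, and all 10 passed the threshold when slide was a block, with adjusted p between 0.021 and 0.0424 by limma. That block called 145 of all features (0.632%). The 10 were picked by p for the same contrast on the same arrays, which favours passing, so no support is drawn from it. Those higher for NM 401 were Xbp1, Rab32, Nfil3 and Fcrls. Xbp1, a transcription factor of the unfolded protein response, measured 0.47, 0.84, 0.64, 0.76 and 0.74 in NM 401 high lungs, against 0.39, 0.47, 0.47, 0.47 and 0.37 in NM 401 low lungs. In Mitsui high lungs it measured 0.56, 0.41, 0.39, 0.54 and 0.42, against 0.65, 0.67, 0.72, 0.65 and 0.64 in Mitsui low lungs. The Mitsui groups did not overlap, and the lowest NM 401 high animal sat level with the highest NM 401 low animals. Its interaction was 0.46 ± 0.09 (adjusted p = 0.0548 by limma). Rab32, a small GTPase of lysosome-related organelles, had an interaction of 0.88 ± 0.17, Nfil3, a transcriptional repressor, 0.71 ± 0.14, and Fcrls, a receptor-like gene of macrophages and microglia, 0.84 ± 0.17. Nfil3 also differed between the nanotubes at the high dose, where NM 401 minus Mitsui was 1.00 (adjusted p = 7.77e-06 by limma).

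Those lower for NM 401 were Tnk1, Armcx5, Aloxe3, Ccdc82, Egfl7 and Ccn2. Ccn2, a secreted matricellular growth factor regulator studied in fibrosis, measured -0.02, 0.64, 0.00, 0.69 and 0.31 in NM 401 high lungs, against 0.66, 0.81, 1.09, 1.29 and 0.79 in NM 401 low lungs. It measured 1.00, 1.41, 1.15, 0.92 and 1.01 in Mitsui high lungs, against 0.70, 0.98, 0.77, 0.68 and 0.66 in Mitsui low lungs. The high-dose animals lay toward the lower end of the range for NM 401 and toward the upper end for Mitsui, and its interaction was -0.95 ± 0.19 (adjusted p = 0.0691 by limma). Egfl7, an endothelial secreted factor, had an interaction of -0.73 ± 0.15, Aloxe3, a lipoxygenase, -0.83 ± 0.17, and Armcx5 -0.54 ± 0.10. For Tnk1 (-0.85 ± 0.16) and Ccdc82 (-0.53 ± 0.11) a second probe disagreed, at -0.10 and 0.02.

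**Figure D2:**
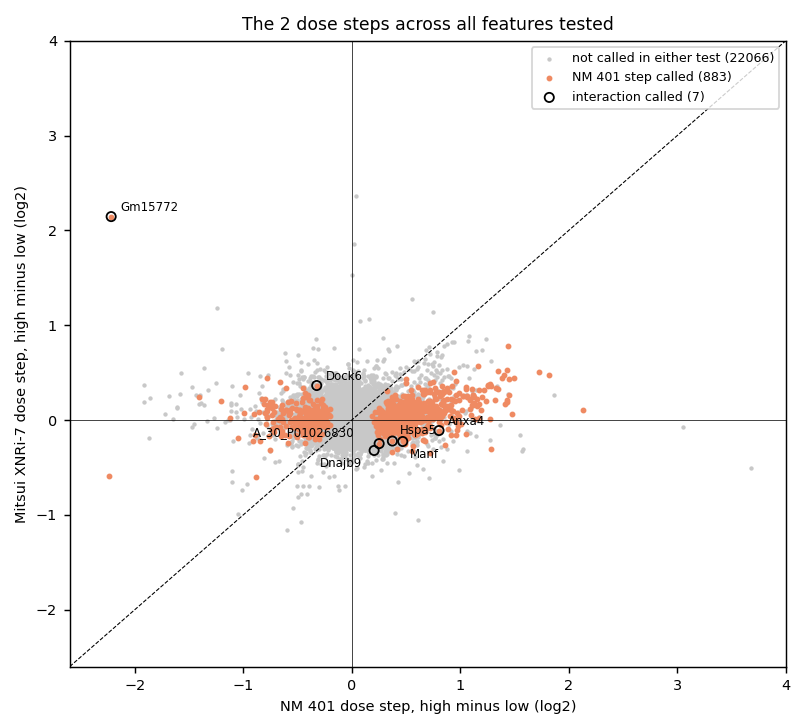
NM 401 dose step (horizontal axis) against Mitsui dose step (vertical axis) for 22950 features, both log2 and high minus low, with the 883 features called for NM 401 in orange and the 7 called interactions circled. The orange points spread along the horizontal axis and most stay close to 0 on the vertical one, with Gm15772 apart at the upper left. They lie below the dashed line of equal steps on the right and above it on the left.

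The 2 dose steps differed in how many features they moved. For NM 401, 883 features were called (3.85%), 619 higher at the high dose (2.7%) and 264 lower (1.15%). In the authors' matrix the split was 581 higher and 405 lower. For Mitsui 0 were called by limma (0%), with 1245 features (5.42%) at an unadjusted p under 0.05 and a smallest adjusted p of 0.113; with slide as a block there were 11 (0.0479%), and 1569 for NM 401 (6.84%). With the array column as a block the NM 401 count was 0, and NM 401 high lay in only 2 of the columns. The median standard error of the NM 401 step was 0.118 with that block, against 0.0951 without it. Array column itself differed in 0 features, and what lowered the count was not tested. The NM 401 count was 1232 without NM 401 high animal 2, whose Xist probes stood apart, and 183 without NM 401 low animal 4. A feature called for one nanotube and not for the other is not thereby shown to differ, and that is what the interaction tests.

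The Mitsui step is measured in other animals than those that chose the 883 features, although both sets shared slides. Among the 619 higher with the NM 401 dose, the median NM 401 step was 0.49 and the median Mitsui step 0.04, and 65.6% were higher at the Mitsui high dose, against 51.2% of all features. Among the 264 lower, the median NM 401 step was -0.41 and the median Mitsui step 0.01, with 54.2% higher at the Mitsui high dose. None of the 883 (0) had a Mitsui step as large as its NM 401 step in the same direction, which the choice by the NM 401 step favours. Without NM 401 high animal 2 the Mitsui medians were 0.04 over 820 features and 0.01 over 412. Across all 22950 features, which are not independent and share arrays and slides, Pearson's r between the 2 steps was 0.058, and 0.017 with slide as a block.

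Genes known for the lung's answer to these particles gave wide intervals. A set of 12 such genes was read whatever their interaction. They were chosen because earlier results of these data showed them raised by exposure, which favours a called step. All 12 had an interaction above 0, none was called (0 of 12), and 6 had a called NM 401 step, against 3.85% of all features. Within slide 3 the interaction was below 0 for Cxcl5 (-1.665), Clca1 (-0.566) and Muc5b (-0.551), and above 0 for the rest. Saa3, an acute phase protein, measured 0.53, 0.76, 2.98, 0.55 and 1.53 in NM 401 high lungs, against -1.01, 0.62, -0.48, -0.79 and 0.19 in NM 401 low lungs. It measured -0.08, -1.08, -0.97, 0.00 and 1.66 in Mitsui high lungs, against -0.28, -0.29, 0.27, 1.15 and 0.32 in Mitsui low lungs, and -4.60 to -3.97 in controls. Animals within a group differed widely, and all 4 exposed groups overlapped. Its interaction was 1.89 ± 0.66, with a 95% interval of 0.54 to 3.25 (adjusted p = 0.222 by limma).

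Hmox1, which breaks down haem, came closest to the threshold. It measured 0.00, -0.19, 0.31, -0.43 and 0.09 in NM 401 high lungs, against -0.94, -0.56, -0.64, -0.92 and -0.67 in NM 401 low lungs, with no overlap. It measured -0.28, -0.61, -0.88, -0.70 and -0.17 in Mitsui high lungs, against -0.50, -0.52, -0.42, -0.37 and -0.56 in Mitsui low lungs, where the low-dose animals lay within the spread of the high-dose animals. The interaction was 0.76 ± 0.18 (adjusted p = 0.087 by limma), and a second probe gave 0.46.

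Trem2, a lipid-sensing receptor of macrophages, measured 2.86, 1.78, 2.80, 2.45 and 2.89 in NM 401 high lungs, against 0.68, 2.00, 1.84, 0.69 and 1.72 in NM 401 low lungs. It measured 2.21, 1.17, 0.89, 1.76 and 2.41 in Mitsui high lungs, against 1.40, 1.39, 1.24, 1.98 and 1.59 in Mitsui low lungs. Both pairs overlapped, and the interaction was 1.00 ± 0.40 with a 95% interval of 0.17 to 1.84. The intervals were 0.20 to 2.23 for Gpnmb and 0.18 to 2.50 for Spp1, both of macrophages that take up lipid and debris, and 0.23 to 2.75 for the monocyte chemokine Ccl7. They were 0.26 to 1.48 for the cytokine Il6, 0.24 to 1.19 for the protease inhibitor Timp1, and 0.13 to 1.05 for the cell cycle inhibitor Cdkn1a, whose second probe gave 0.31 against 0.59. For Cxcl5, a neutrophil chemokine, the interval was -0.54 to 1.74, for Clca1 of goblet cells -1.08 to 3.92, and for the mucin Muc5b -0.34 to 1.1. These last 3 intervals reach across 0 and do not show that the 2 nanotubes acted alike.

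The 35 ER chaperone and unfolded protein response genes were put together after Manf, Hspa5 and Dnajb9 had been seen among the called features, so their count is a description. Of these 3 were called (0.0218% of all features were called higher), 32 of 35 had an interaction above 0, and the median was 0.25, against -9.47e-05 over all features. With slide as a block 6 were called higher (0.218% of all features were), namely Hspa5, Manf, Dnajb9, Xbp1, Pdia6 and Creld2. The NM 401 step was called higher for 9 genes (2.7% of all features were) and the Mitsui step for 0. Of the Mitsui steps 29 of 35 lay below 0, while 51.2% of those of all features lay above 0.

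By animal, the mean of the 35 genes relative to the control mean was 0.18, 0.20, 0.20, 0.19 and 0.19 in NM 401 high lungs, against -0.07, 0.03, 0.05, 0.03 and 0.04 in NM 401 low lungs. It was 0.12, 0.12, 0.00, 0.06 and 0.12 in Mitsui high lungs, against 0.14, 0.17, 0.12, 0.21 and 0.20 in Mitsui low lungs. The NM 401 high animals lay in a narrow band above all NM 401 low animals. The Mitsui high animals lay at or below the lower Mitsui low animals, with a small overlap at 0.12.

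Among the chaperones and folding enzymes of this list, Creld2 measured -0.65, -0.49, -0.71, -0.52 and -0.73 in NM 401 high lungs, against -1.11, -0.92, -0.93, -1.0 and -0.66 in NM 401 low lungs, and its interaction was 0.47 ± 0.11 (adjusted p = 0.0883 by limma). Sdf2l1, an ER protein that works with Hspa5, had an interaction of 0.66 ± 0.16, and the disulfide isomerases Pdia4 and Pdia6 had 0.49 ± 0.13 and 0.38 ± 0.10. Hsp90b1, the ER member of the Hsp90 family, had 0.15 ± 0.11, and Calr, a calcium-binding lectin chaperone, 0.35 ± 0.17. Of the machinery that removes misfolded proteins, Derl1 had 0.44 ± 0.12 and Edem1 0.38 ± 0.12, while Herpud1 had 0.15 ± 0.12. A second probe of Derl1 gave 0.11 ± 0.07.

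Sensors and members of the branch that slows translation differed among themselves. The sensors Ern1, Atf6 and Eif2ak3 had interactions of 0.01 ± 0.15, -0.10 ± 0.08 and 0.10 ± 0.16. The transcription factors Atf4 and Ddit3 had -0.08 ± 0.10 and 0.38 ± 0.18, and Ppp1r15a, which restores translation, had -0.47 ± 0.19. A second probe of Atf4 had the opposite sign, 0.22 ± 0.12. None of these was called.

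Cytosolic heat shock proteins were a list of 20 genes added for comparison at the same point. Of these 19 were tested, each by its brightest probe, with 0 called, 16 above 0 and a median of 0.19. With array weights, an alternative listed below, 3 of this list were called. In that setting 8 of the ER list and 144 of all 22950 features were called. At an unadjusted p under 0.05, 9 of the 19 were higher, against 17 of the 35 ER genes. Of all features 12.7% passed that p in either direction. Hsph1 had an interaction of 0.84 and Dnaja1 0.64, and their second probes gave 0.84 and 0.54. Hspa8, the constant cytosolic Hsp70, measured 0.18, 0.08, 0.29, 0.23 and 0.08 in NM 401 high lungs, against -0.29, -0.14, -0.19, 0.04 and 0.04 in NM 401 low lungs. It measured -0.14, -0.36, -0.01, -0.07 and 0.02 in Mitsui high lungs, against 0.26, 0.10, 0.16, 0.64 and 0.33 in Mitsui low lungs, so the high dose lay above the low dose for NM 401 and below it for Mitsui, with overlap in neither. Its interaction was 0.69 ± 0.15 (adjusted p = 0.0748 by limma), and it was called with slide as a block. Hspa8 was called in 6 of 38 alternatives, at a lowest adjusted p of 0.00691 by limma, so its call depended on the probe and the setting. The other probes of Hspa8 gave 1.01 and 0.91, at an unadjusted p of 7.04e-07 and 7.45e-06 by limma. Hspa1a, the inducible cytosolic Hsp70, had 1.08 ± 0.27, but its controls measured 0.60, 1.61, 2.00, 1.28 and 0.95, and all except the first of these lay above every exposed animal.

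**Figure D3:**
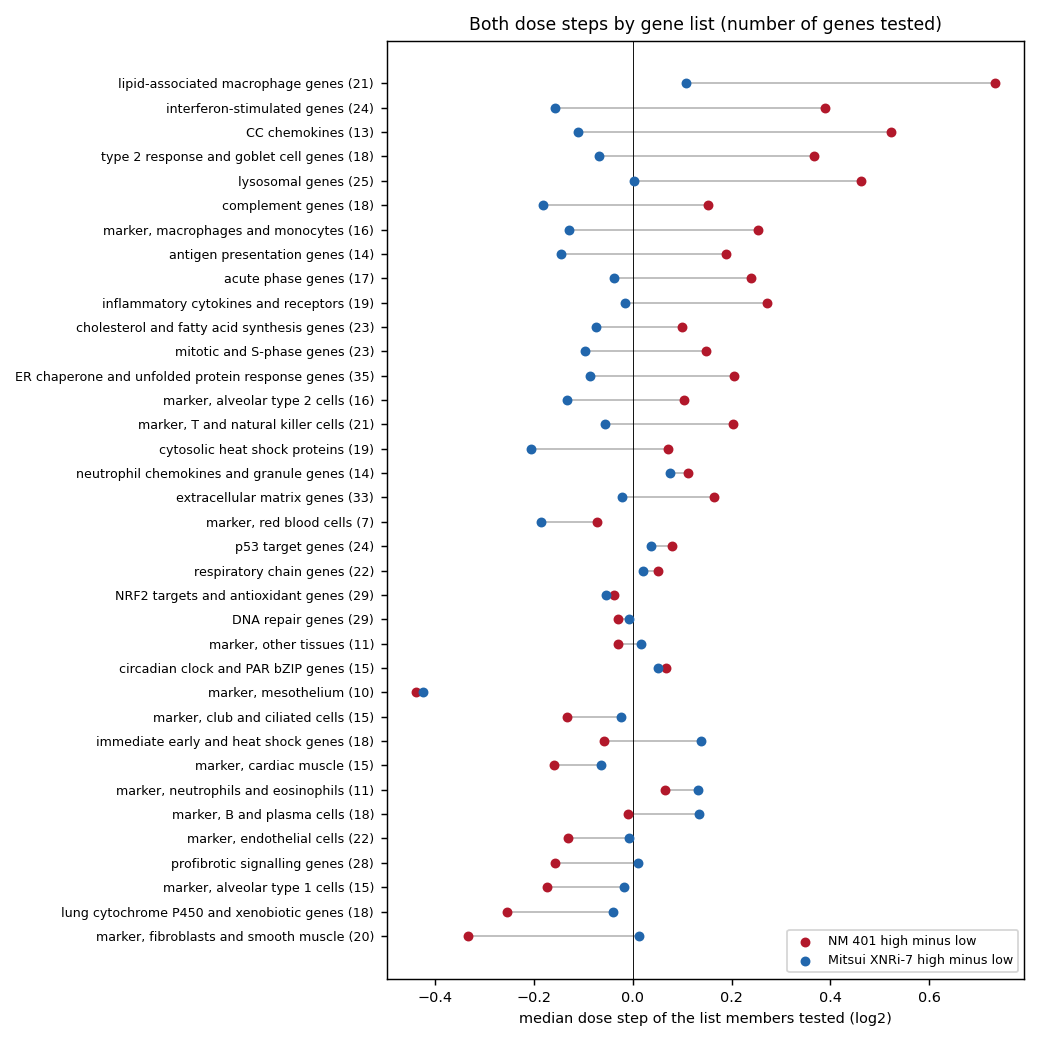
Median dose step (horizontal axis, log2, high minus low) of the members tested in each gene list, NM 401 in red and Mitsui in blue, ordered by the median interaction. Red lies to the right of blue in the upper lists, such as lipid-associated macrophage genes and CC chemokines, and to the left in the lowest ones, such as fibroblast and smooth muscle markers.

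Of 34 further gene lists, 20 had a median interaction above 0 and 14 below 0, and none had a called member (0). The largest median was that of lipid-associated macrophage genes, 0.65 over 21 genes tested, with 19 above 0 and 12 at an unadjusted p under 0.05 (12.7% of all features). Their median NM 401 step was 0.73, with 13 called higher (2.7% of all features), and the median Mitsui step 0.11. Ctsb, a lysosomal protease, had an interaction of 0.95 ± 0.34, and the lipid carrier Fabp5 0.83 ± 0.29.

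Interferon-stimulated genes had a median of 0.59, CC chemokines 0.45 and type 2 response and goblet cell genes 0.44. Lysosomal genes came next with 0.41 over 25 genes, 23 above 0 and 17 at an unadjusted p under 0.05 (12.7% of all features). Npc2, which exports cholesterol from lysosomes, measured 2.66, 2.26, 2.73, 2.37 and 2.78 in NM 401 high lungs, against 1.83, 2.11, 2.01, 1.69 and 2.30 in NM 401 low lungs. It measured 2.23, 1.70, 2.04, 2.10 and 2.28 in Mitsui high lungs, against 1.94, 2.35, 2.28, 2.09 and 2.23 in Mitsui low lungs. The 4 groups overlapped, with most NM 401 high animals on top, and the interaction was 0.68 ± 0.17 (adjusted p = 0.109 by limma).

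Among inflammatory genes, Il1rn, the natural antagonist of the interleukin 1 receptor, measured 1.46, 1.53, 1.93, 1.31 and 1.68 in NM 401 high lungs, against 0.45, 0.99, 1.02, 0.30 and 0.31 in NM 401 low lungs. It measured 1.12, 0.74, 0.51, 0.90 and 1.27 in Mitsui high lungs, against 1.04, 0.64, 0.64, 1.02 and 0.84 in Mitsui low lungs. The NM 401 groups did not overlap and the Mitsui groups did, and the interaction was 0.90 ± 0.22 (adjusted p = 0.0947 by limma). CC chemokines had a median interaction of 0.45 over 13 genes, complement genes 0.37 over 18 and inflammatory cytokines and receptors 0.29 over 19. C3, the central complement protein, had steps of 0.11 ± 0.13 for NM 401 and -0.49 ± 0.13 for Mitsui, so its interaction of 0.61 ± 0.19 came mainly from the Mitsui side.

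Il33, an alarmin made by alveolar type 2 cells, measured 3.65, 3.61, 3.52, 3.57 and 3.90 in NM 401 high lungs, against 2.77, 3.51, 2.88, 2.10 and 2.71 in NM 401 low lungs. It measured 3.27, 2.48, 2.46, 3.01 and 3.50 in Mitsui high lungs, against 3.27, 2.94, 3.30, 3.07 and 3.47 in Mitsui low lungs. The NM 401 high animals all lay above the NM 401 low animals, the nearest at 3.52 and 3.51, and the Mitsui groups overlapped. Its interaction was 1.12 ± 0.28 (adjusted p = 0.107 by limma). The alveolar type 2 markers had a median of 0.24, with 16 of 16 above 0 and 4 at an unadjusted p under 0.05 (12.7% of all features).

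**Figure D4:**
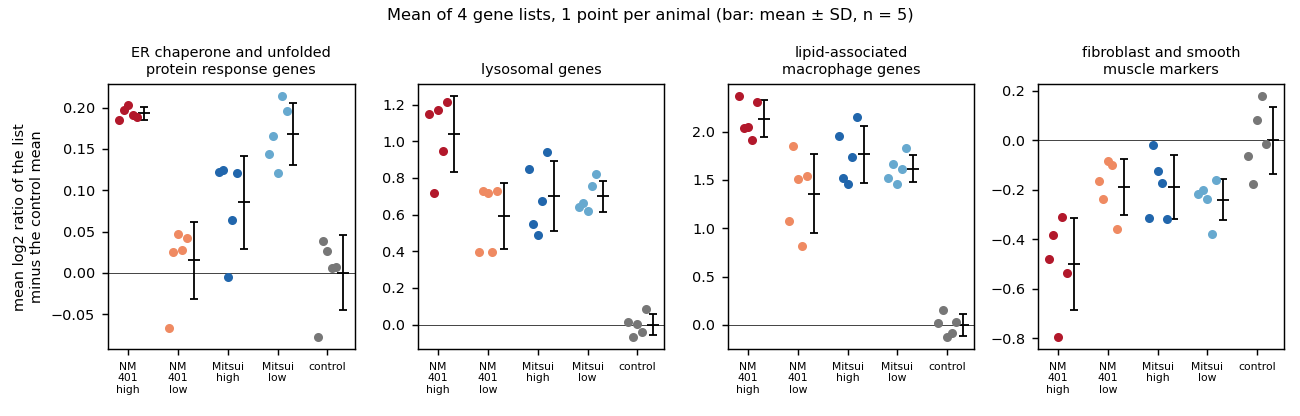
Mean log2 ratio of 4 gene lists relative to the control mean (vertical axes) in each animal, with the mean ± SD of 5 animals beside the points. In the ER panel NM 401 high lies between 0.18 and 0.20 and NM 401 low between -0.07 and 0.05, while in the fibroblast and smooth muscle panel NM 401 high lies lowest, between -0.79 and -0.31.

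Fibroblast and smooth muscle, endothelial and alveolar type 1 markers had medians below 0, unlike the alveolar type 2 markers. Those of fibroblasts and smooth muscle had the lowest median, -0.42 over 20 genes, with 3 above 0. Of the 20, 10 were lower at an unadjusted p under 0.05, which 12.7% of all features passed in either direction. Their median NM 401 step was -0.33, with 5 called lower (1.15% of all features), and the median Mitsui step 0.01. Tcf21, a transcription factor of lung fibroblasts, measured 3.44, 3.38, 3.22, 3.77 and 3.67 in NM 401 high lungs, against 4.23, 3.90, 4.58, 4.64 and 3.76 in NM 401 low lungs. In Mitsui high lungs it measured 3.65, 4.21, 3.72, 4.06 and 3.65, against 4.01, 3.78, 3.86, 3.66 and 4.09 in Mitsui low lungs. NM 401 high overlapped NM 401 low in 1 pair of animals, and the interaction was -0.71 ± 0.21 (adjusted p = 0.161 by limma).

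Esm1, an endothelial proteoglycan, measured -0.26, 0.51, -0.17, 0.25 and 0.06 in NM 401 high lungs, against 1.54, 1.23, 1.66, 2.66 and 0.35 in NM 401 low lungs. It measured 1.1, 1.65, 1.13, 0.64 and 0.04 in Mitsui high lungs, against 0.53, 0.42, 1.01, 0.88 and 0.53 in Mitsui low lungs. Its interaction was -1.65 ± 0.41 (adjusted p = 0.0989 by limma), and NM 401 high overlapped NM 401 low through NM 401 low animal 5 and NM 401 high animal 2. Klf2, a flow-responsive transcription factor of endothelium, measured 2.73, 3.41, 3.24, 3.55 and 3.12 in NM 401 high lungs, against 3.88, 3.80, 4.05, 4.09 and 3.55 in NM 401 low lungs. Its interaction was -1.07 ± 0.22 (adjusted p = 0.0706 by limma), and that of the related Klf4 was -0.88 ± 0.20. Endothelial markers as a list had a median of -0.17 and alveolar type 1 markers -0.20. When arrays were centred on their median in place of loess, the median of all features moved to 0.27. The endothelial and alveolar type 1 medians turned positive, at 0.15 and 0.19, and that of fibroblast and smooth muscle markers was -0.04, all below that shift.

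Levels of cell type markers were read beside these results. The mean of the macrophage and monocyte markers, relative to control, ranged over 0.41 to 0.76 in NM 401 high lungs, against 0.28 to 0.58 in NM 401 low lungs, and over 0.23 to 0.46 in Mitsui high lungs, against 0.36 to 0.61 in Mitsui low lungs. Of 20 such markers 16 were tested, 12 had an interaction above 0, and 9 passed an unadjusted p under 0.05 (12.7% of all features). The fibroblast and smooth muscle markers, all 20 of them tested, ranged over -0.79 to -0.31 in NM 401 high lungs, against -0.36 to -0.08 in NM 401 low lungs, and over -0.32 to -0.02 in Mitsui high lungs, against -0.38 to -0.16 in Mitsui low lungs. For plasma and B cells, which also use Xbp1, 18 of 19 markers were tested, 5 had an interaction above 0 and the median was -0.15, or 0.12 with median centring. The part of cell composition in the interactions was not tested.

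**Figure D5:**
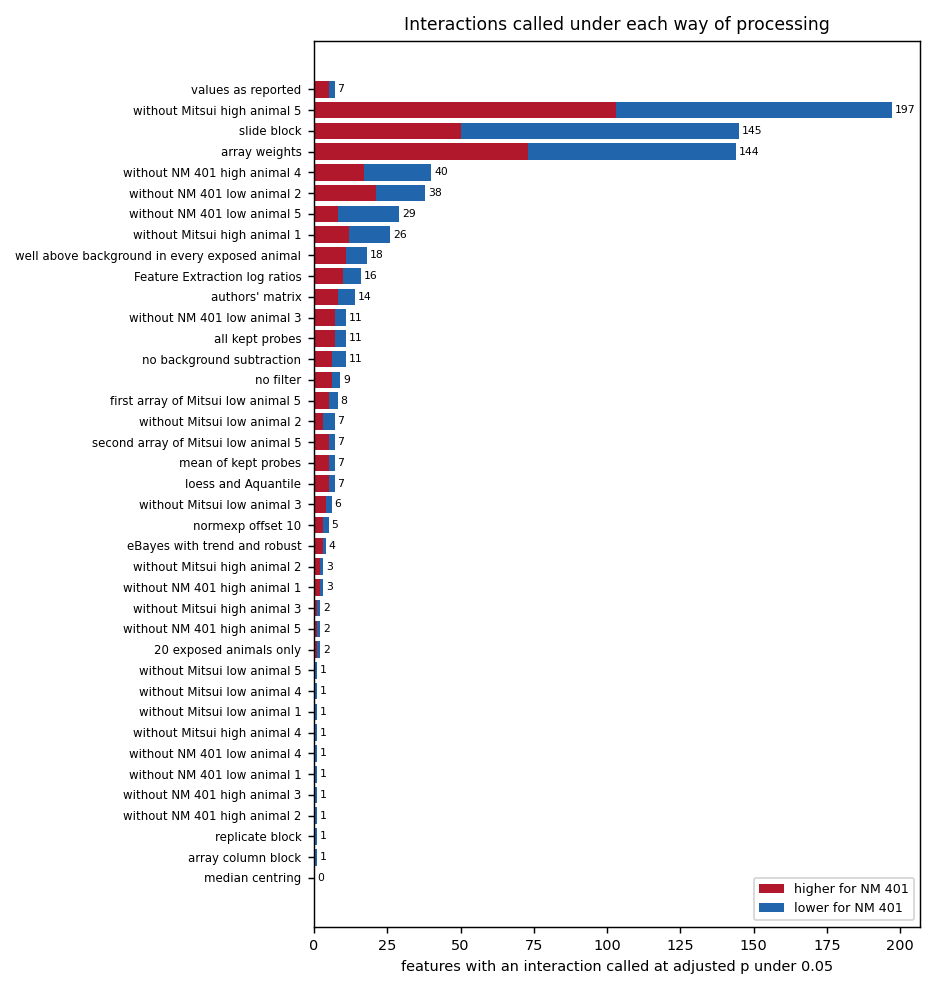
Number of features with a called interaction (horizontal axis) for the values as reported and under each of 38 other ways of processing, split into higher (red) and lower (blue) for NM 401. The count was 7 as reported and ran from 0 with median centring to 197 without Mitsui high animal 5.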

How the data were processed

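The deposited scanner files hold each spot's median intensity and that of its local background, neither subtracted nor normalised, per the file headers. Agilent Feature Extraction 11.0.1.1 wrote them, together with log10 ratios corrected for background and dye, and flags for outlier spots and spots well above background, per the file headers. The authors deposited a matrix of log2 ratios whose normalization is not given in the sources used here. It correlated with the ratios computed here at 0.988 to 0.998, had column medians of -0.04 to -0.0181, and ran in the same direction.

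Signals were corrected by normexp (offset 50) and loess within arrays in limma 3.58.1 (R 4.3.3), without control spots and outlier spots (0.461%). Of 55681 probes, 30466 were kept because their Cy5 spots cleared the background flag in 4 or more animals of a group. The brightest probe per gene gave 22950 features, 14838 of them named through RefSeq accessions. A linear model of 5 group means was fitted over 25 animals (20 residual and 3.76 prior degrees of freedom), and adjusted p-values cover all features. Errors are standard errors (n = 5), and the number of arrays limits the precision.

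Replicate numbers did not pair animals: 7 of 30 same-numbered pairs correlated above 0.1 (range -0.382 to 0.296). Named genes are the called features, then the smallest p up to 8 in each direction, up to 2 members per list with the smallest p, 12 response genes, and members of the 2 lists added after values were seen. The contrast, the gene lists and the alternatives were chosen with earlier results of these data known.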

Additional observations from a re-analysis of the deposited data

Results flagged for a closer look

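The interaction was called for 7 features by limma's test of the difference itself: Gm15772 (-4.36), Manf (0.70), Dock6 (-0.69), Hspa5 (0.60), Anxa4 (0.91), the unnamed probe A_30_P01026830 (0.50) and Dnajb9 (0.53). Adjusted p-values ran from 0.0124 to 0.0381. The calls were not stable. Without NM 401 high animal 2, or with the array column as a block, only Gm15772 was called, and its probe may also read Rpl26. With median centring 0 were called.

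Single animals stood apart from the other 4 of their group in 6 of 116 groups examined over 29 genes, and chance gives about 1 in 20. Spp1 in Mitsui low animal 5 was 0.86, against 0.16 in the next animal, and this is the animal measured on 2 arrays. Gm15772 in NM 401 low animal 5 was -1.82, against -0.09 in the next animal, and in Mitsui low animal 5 it was -2.62, against -2.12. Fcrls in NM 401 high animal 1 was 2.71, against 2.44 in the next animal. Egfl7 in NM 401 high animal 4 was 4.71, against 4.50 in the next. Armcx5 in Mitsui high animal 3 was -0.20, against -0.42 in the next.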

How the results depend on the processing

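The called interactions, 7 as reported, numbered 0 with median centring, 1 with the replicate block or the array column block, 2 with the 20 exposed animals only, 4 with eBayes trend and robust settings, and 11 with no background subtraction or with all kept probes. They numbered 14 in the authors' matrix, 16 with Feature Extraction log ratios, 18 where spots had to be well above background in every exposed animal, 144 with array weights and 145 with the slide block. Leaving out 1 animal gave 1 to 197. The count was 1 without NM 401 high animals 2 or 3, NM 401 low animals 1 or 4, Mitsui high animal 4, or Mitsui low animals 1, 4 or 5. The NM 401 step, 883 as reported, had 8 calls with median centring, 0 with the array column block, 1569 with the slide block and 1854 with array weights, and 183 to 1232 without 1 animal. The Mitsui step, 0 as reported, had 2 calls under the stricter filter, 11 with the slide block, 1 with the replicate block or the exposed animals only, and 0 to 3 without 1 animal. The replicate numbers did not pair animals, and the NM 401 step had 919 calls with the replicate block.

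All 7 called features were chosen on the same arrays, and they kept their sign in each of 38 alternatives. Some of these could not turn a sign. Quantile scaling of average intensities after loess (Aquantile) left all ratios and calls as reported. The exposed animals only, and eBayes trend and robust settings, changed errors but not estimates. Calls were kept in 37 of the 38, Aquantile among them, for Gm15772, 26 for Manf, 22 for Hspa5, 21 for Anxa4, 20 for Dock6, and 18 each for Dnajb9 and A_30_P01026830. Signs turned for 10 named genes, none of them called as reported. With median centring these were Rad50 (0.0492), Pdgfb (0.00818), Tef (0.00548), Por (0.0202), Vegfa (0.13), Msln (0.19) and Actc1 (0.14), all below the shift of all features. Atp5c1 turned to -0.0022 with no filter and to -0.0022 where spots had to be well above background in every exposed animal. This is the value of a second probe of Atp5c1, which was read in those settings. Muc5b turned to -0.0589 with the array column block. Hbb-b2 turned to -0.0303 without Mitsui high animal 3, within a range of -0.0303 to 0.328 over the animals left out. The cause of the other changes was not tested.

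With 5 animals per group, the median standard error of an interaction was 0.135, against 0.0951 for a single dose step. The 2 arrays of Mitsui low animal 5 correlated at 0.978, no higher than the highest correlation between animals of a group (0.979). Slide and array column overlap with the groups only in part, and a block for either also removes animals' differences that fall along it. Replicates were labelled as separate animals.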

Other observations

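Interferon-stimulated genes had 24 of 24 interactions above 0 and a median of 0.59, yet 0 were called by limma and 0 passed an unadjusted p under 0.05. Animals of a group differed widely: the list mean relative to control ranged over 0.27 to 2.87 in NM 401 high lungs, against 0.36 to 2.16 in NM 401 low lungs, and over 0.39 to 1.27 in Mitsui high lungs, against 0.31 to 2.12 in Mitsui low lungs. Cxcl9, a chemokine induced by interferon gamma, measured 1.72, 1.29, 3.44, 3.35 and 3.14 in NM 401 high lungs, against 0.67, 1.00, 2.89, 1.65 and 1.87 in NM 401 low lungs. All 4 exposed groups overlapped for it, and its interaction was 0.98 ± 0.59 with a 95% interval of -0.22 to 2.19.

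Mutyh, a DNA glycosylase that removes adenine paired with oxidised guanine, measured -2.31, -2.09, -2.29, -2.22 and -1.85 in NM 401 high lungs, against -1.99, -2.11, -1.92, -1.82 and -1.93 in NM 401 low lungs. It measured -1.90, -1.89, -1.80, -1.55 and -1.70 in Mitsui high lungs, against -2.39, -2.25, -2.23, -2.12 and -2.04 in Mitsui low lungs, with no overlap between the Mitsui doses. Its interaction was -0.64 ± 0.14 (adjusted p = 0.0825 by limma, and 0.0469 with the slide block). DNA repair genes as a list had a median of -0.03 over 29 genes, and that median turned to 0.01 with Feature Extraction ratios or the stricter filter and to 0.27 with median centring. Target genes of p53 had a median of 0.09 over 24 genes and respiratory chain genes 0.08 over 22, with 0 of either list called by limma.

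Genes of cholesterol and fatty acid synthesis had 22 of 23 interactions above 0 and a median of 0.27, with 0 called. Of the 23, 4 passed an unadjusted p under 0.05, near the share of all features (12.7%). Cyp51, an enzyme of cholesterol synthesis, had steps of 0.20 ± 0.10 for NM 401 and -0.26 ± 0.10 for Mitsui. Cyp4b1, a lung cytochrome P450, measured 6.67, 6.62, 6.08, 6.94 and 6.11 in NM 401 high lungs, against 7.17, 6.98, 7.23, 7.29 and 7.00 in NM 401 low lungs, with no overlap. It measured 7.06, 7.23, 7.34, 7.11 and 6.37 in Mitsui high lungs, against 7.00, 7.02, 6.79, 6.80 and 6.89 in Mitsui low lungs, which overlapped, and its interaction was -0.77 ± 0.23 (adjusted p = 0.152 by limma).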
